A study of Homo sapiens with 3 samples.

Results

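The 9 genes described here encode, or in 1 case help to make, cell-surface antigens that antibodies, antibody-drug conjugates, radioligands or engineered T cells have been directed against in small cell and other cancers: CEACAM5, CEACAM1, SEZ6, CD276, NCAM1, B4GALNT1, SSTR2, CD24 and CADM1. They were chosen by name, as listed therapy targets, with earlier results of these data known. They were found by matching gene identifiers to symbols in count tables of 60609 genes, 27622 of which had at least 1 read. All 9 had reads in every library. RNA came from the human small cell lung cancer line NCI-H209, an established culture in which a lentiviral Tet-pLKO-puro vector expressed a short hairpin RNA under doxycycline. The silenced gene was YES1, a tyrosine kinase of the Src family, targeted by hairpin sh490 in 1 library and by hairpin sh1362 in another; the control library carried a hairpin against GFP (shGFP). All 3 libraries came from infected cells of this line, and the labels describe doxycycline at 1 µg/mL every 2 days. The question was the level of each antigen transcript in the control and its change with each YES1 hairpin. There was 1 library per hairpin and 1 control, and the labels do not say whether they came from separate cultures. A p-value here rests on the spread between the 2 hairpin libraries, pooled with that of other genes. That spread may be technical or a difference between the hairpins, and the single control adds none of its own.

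An antigen-directed drug needs a protein that the tumour cell exposes on its membrane and that most healthy cells lack or hide. Small cell lung cancer is largely a neuroendocrine tumour, and several of its surface targets belong to the neural programme of these cells, among them the adhesion molecules NCAM1 and CADM1, the neuronal protein SEZ6 and the somatostatin receptor SSTR2. Others are epithelial, such as the carcinoembryonic antigen CEACAM5 and its relative CEACAM1, or act on immune cells, such as the B7 family ligand CD276 and the small glycoprotein CD24. B4GALNT1 is not itself exposed; it is the Golgi enzyme that adds N-acetylgalactosamine to make GM2 and GD2, the glycolipids that anti-ganglioside therapies bind. Only RNA was measured, so the protein on the surface is not addressed, and in bulk RNA fewer cells expressing a gene and less RNA per cell cannot be told apart.

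The libraries held 4899006 to 7791747 counted reads, the fewest in shGFP. YES1, the targeted gene, had 163 reads in sh490, 216 in sh1362 and 1465 in shGFP, and its fitted log2 fold was -3.60 ± 0.30 (SE; edgeR quasi-likelihood test, Benjamini-Hochberg adjusted p = 0.00761). All 11 listed neuroendocrine markers had reads in every library, led by UCHL1 at 1005 TPM in shGFP (a level per exon length, scaled so that every library has the same total). The shGFP library also held blood transcripts. HBB, HBA1 and HBA2 summed to 733.9 CPM there (reads scaled to library size with TMM factors), against 18.6 in sh490 and 20.4 in sh1362. The 20 white cell markers summed to 40.01 CPM in shGFP, 25.6 in sh490 and 38.7 in sh1362, and 7, 13 and 12 of them were at 0; without LCP1, which had 134 to 249 reads in each library, the sums were 12.2, 4.17 and 4.89. The part of these blood transcripts in the values below was not tested.

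In the control, the 9 transcripts spanned a wide range of levels per exon length. CD24 was highest at 268.8 TPM (exact 95% counting interval 253 to 286), above 97.8% of the 21403 genes with reads in that library. CADM1 followed at 161.5 TPM (155 to 168) and NCAM1 at 43.1 TPM (39.9 to 46.4). These 3 made up 89.3% of the summed level of the 9, which was 529.9 TPM. The middle of the order held CD276 at 23.0 TPM (19.6 to 26.8), CEACAM1 at 10.7 TPM (8.40 to 13.4) and B4GALNT1 at 10.4 TPM (8.52 to 12.6). CEACAM5 was at 6.54 TPM (4.34 to 9.45), SEZ6 at 3.94 TPM (2.55 to 5.82) and SSTR2 at 1.99 TPM (1.22 to 3.08), all below the median of 7.50 TPM for genes with reads in shGFP. Neighbours in this order differed beyond counting error except CEACAM1 against B4GALNT1 (ratio 1.03, interval 0.752 to 1.39) and CEACAM5 against SEZ6 (ratio 1.66, 0.932 to 2.97). Intervals here and below cover counting error only, since several reads may copy 1 molecule where no molecular identifiers were used.

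**Figure D1:**
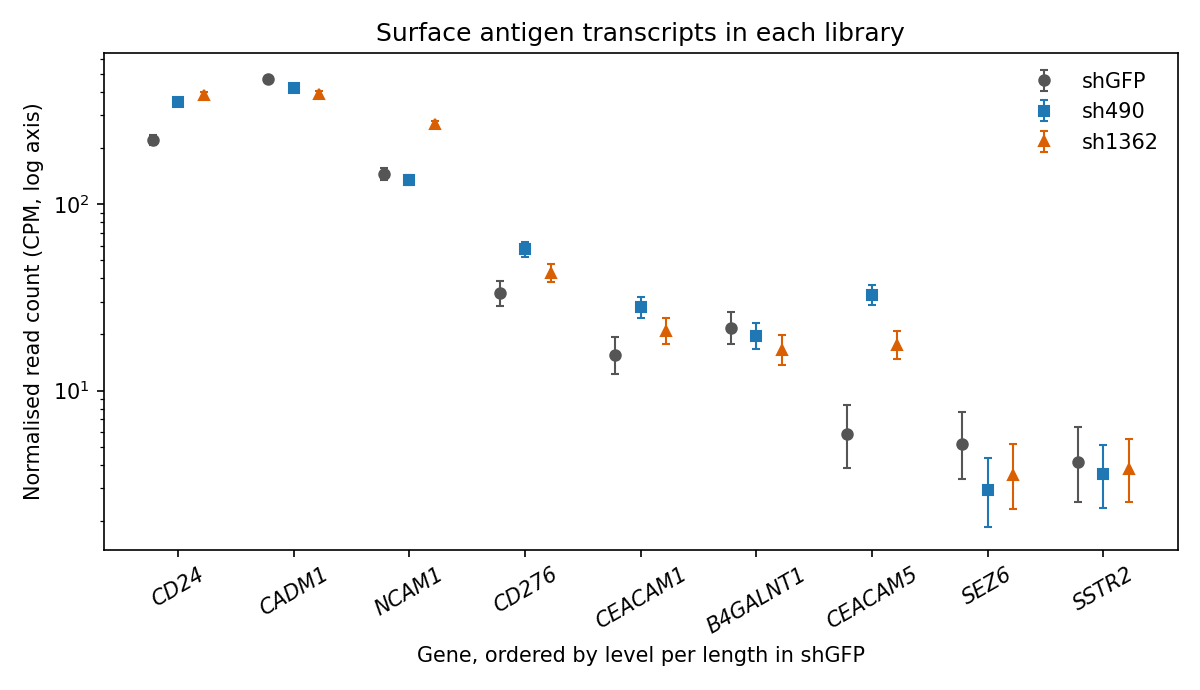
Normalised read count (CPM, log axis) of the 9 surface antigen genes in the shGFP (circles), sh490 (squares) and sh1362 (triangles) libraries, with exact 95% counting intervals as bars; genes are ordered by level per exon length in shGFP. CEACAM5 stands at 5.81 CPM in shGFP and at 32.5 and 17.7 CPM with the hairpins, the widest separation of the 9.

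The same order held with the hairpins apart from CEACAM5. That gene moved from place 7 in shGFP to place 5 in both hairpin libraries, past CEACAM1 and B4GALNT1. In sh490, NCAM1, CD276 and CEACAM5 lay close together, at 41.0, 40.7 and 37.7 TPM. Neighbours were compared for counting error in shGFP only, so the order of these genes in sh490 is uncertain. The summed level of the 9 was 743.9 TPM in sh490 and 716.0 TPM in sh1362, with CD24, CADM1 and NCAM1 together at 85.0% and 90.0% of it. A sum of TPM moves with the rest of the library, so these totals are descriptions with no test.

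With the YES1 hairpins, CEACAM5 was the antigen that differed most from the control, and it was higher with each hairpin. CEACAM1, CD276 and CD24 were higher with each by less than 2-fold. CADM1 and B4GALNT1 were slightly lower with each, and NCAM1 was higher with sh1362 alone. None of these passed the test of both hairpins against shGFP: 0 of the 9 had a Benjamini-Hochberg adjusted p under 0.05 in edgeR's quasi-likelihood test, among 15708 genes tested of which 0.0% were called higher and 0.0255% lower (4 genes: YES1, HBB, HBA1 and HBA2). At an unadjusted p under 0.05, CEACAM5 and CD24 were the 2 of 9 that passed, both higher, where 2.27% of all tested genes were higher and 2.08% lower at that level. With DESeq2 and with limma-voom, too, 0 of the 9 passed after adjustment and 2 of 9 before it. The other lists held 179 genes, red cell markers aside, but many had too few reads to be tested, so the counts below are not shares of 179. Of them, 0 passed after adjustment by any of the 3 tools. An unadjusted p under 0.05 was found for 13 in edgeR, 7 in DESeq2 and 13 in limma-voom.

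Taken hairpin by hairpin, there is no test, and a change was called where it reached 2-fold in genes whose mean over the 3 libraries was at least 5 CPM. That left 7 of the 9, without SEZ6 and SSTR2. CEACAM5 was the only 1 of the 7 at least 2-fold higher with sh490, where 1.39% of 11638 genes were, and the only 1 with sh1362, where 3.3% were; 0.808% of genes were 2-fold higher with each. None of the 7 was 2-fold lower, where 1.42% of genes were with sh490 and 6.0% with sh1362. By direction alone, 4 of the 7 were higher with both hairpins (33.8% of all genes), 2 lower with both (34.5%) and 1 opposite (31.8%). For sh490 the median log2 fold of the 7 was 0.68, and for sh1362 it was 0.42, beside 0.00 and -0.01 over all genes. Both comparisons use the same shGFP library, so its counts enter each of them.

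Counting error alone separated more of the antigens from the control. With sh490 the 95% counting interval of the ratio lay above 1 for 4 of 9 (17.6% of tested genes) and below 1 for 1 of 9 (18.6%). With sh1362 it lay above 1 for 5 of 9 (23.5% of tested genes) and below 1 for 2 of 9 (24.7%). Such an interval holds the error of counting reads in 2 libraries and no spread between cultures.

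**Figure D2:**
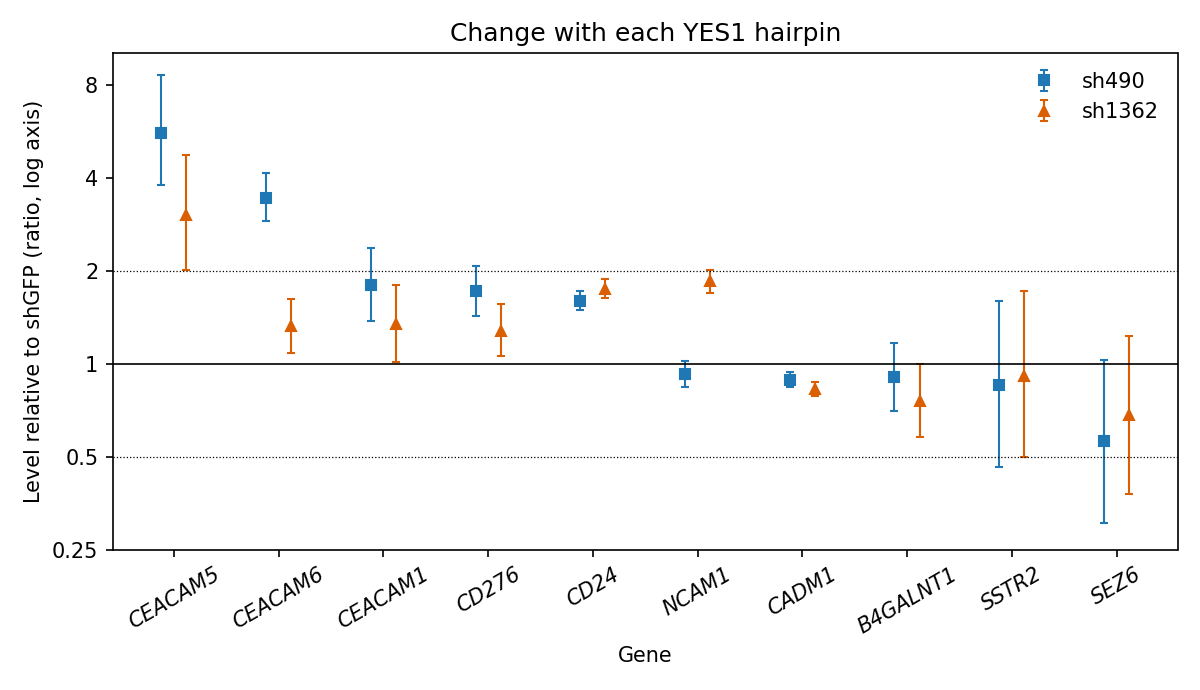
Level with sh490 (squares) and sh1362 (triangles) relative to shGFP, as a ratio on a log axis, for the 9 antigens and CEACAM6; bars are exact 95% counting intervals, the solid line marks no difference and dotted lines mark 2-fold. CEACAM5 lies above the upper dotted line with both hairpins, at 5.60 and 3.04.

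CEACAM5, which codes for a glycosylphosphatidylinositol-anchored adhesion glycoprotein long used as a serum tumour marker, lies at chr19:41708585-41729798 on the plus strand (GRCh38, as are all positions here; ENSG00000105388.15). It had 257 reads in sh490, 130 in sh1362 and 28 in shGFP, or 32.5, 17.7 and 5.81 CPM. Both hairpin libraries were above the control and apart from each other, sh490 the higher. The ratio to shGFP was 5.60 (3.78 to 8.59) with sh490 and 3.04 (2.01 to 4.75) with sh1362, and sh490 exceeded sh1362 by 1.84 (1.49 to 2.29). Among 11638 genes ordered by log2 fold, CEACAM5 stood at rank 3 from the highest with sh490 and at rank 76 with sh1362. The fitted log2 fold for both hairpins was 2.11 ± 0.53 (SE), with an unadjusted p of 0.00402 and a Benjamini-Hochberg adjusted p of 0.986 in edgeR. The adjusted value ranged from 0.00579 without a filter on low counts to 1.0 with limma-voom, so the call depends on which genes are kept. The control value rests on 28 reads, for which the interval is 3.86 to 8.39 CPM.

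CEACAM1, which codes for a transmembrane relative that binds itself across cells and restrains lymphocytes through its cytoplasmic tail, lies at chr19:42507304-42561234 on the minus strand (ENSG00000079385.22). It had 221 reads in sh490, 154 in sh1362 and 75 in shGFP, or 28.0, 20.9 and 15.6 CPM. The order of the libraries was that of CEACAM5, with smaller steps. Its ratio to shGFP was 1.80 (1.38 to 2.37) with sh490 and 1.35 (1.01 to 1.80) with sh1362, and the fitted log2 fold of 0.65 ± 0.38 (SE) did not pass (edgeR, Benjamini-Hochberg adjusted p = 0.986).

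Of the family's 12 genes in the tables, 4 had at least 10 reads in every library: CEACAM5, CEACAM6, CEACAM1 and CEACAM19. CEACAM6, the glycosylphosphatidylinositol-anchored neighbour of CEACAM5, had 827 reads in sh490, 295 in sh1362 and 146 in shGFP. It was the most abundant of the family in each library, at 137.3, 48.2 and 38.6 TPM. Its ratio to shGFP was 3.46 (2.90 to 4.15) with sh490 but 1.32 (1.08 to 1.63) with sh1362, and it did not pass the test of both (edgeR, Benjamini-Hochberg adjusted p = 0.986). CEACAM5 therefore took a larger share of the summed TPM of CEACAM5, CEACAM6 and CEACAM1 with the hairpins, 19.3% in sh490 and 23.3% in sh1362, than in shGFP, at 11.7%. CEACAM19, with 24, 51 and 31 reads in sh490, sh1362 and shGFP, was 2-fold lower with sh490 (ratio 0.472, 0.265 to 0.831) and close to the control with sh1362 (1.08, 0.676 to 1.74). CEACAM16 had 6, 16 and 2 reads and CEACAM7 had 1, 8 and 2, too few for a fold. CEACAM3, CEACAM4, CEACAM8 and CEACAM18 were at 0 in all 3 libraries. The limit used for a count of 0 is 3 reads, equal to 0.379, 0.407 and 0.622 CPM in sh490, sh1362 and shGFP.

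**Figure D3:**
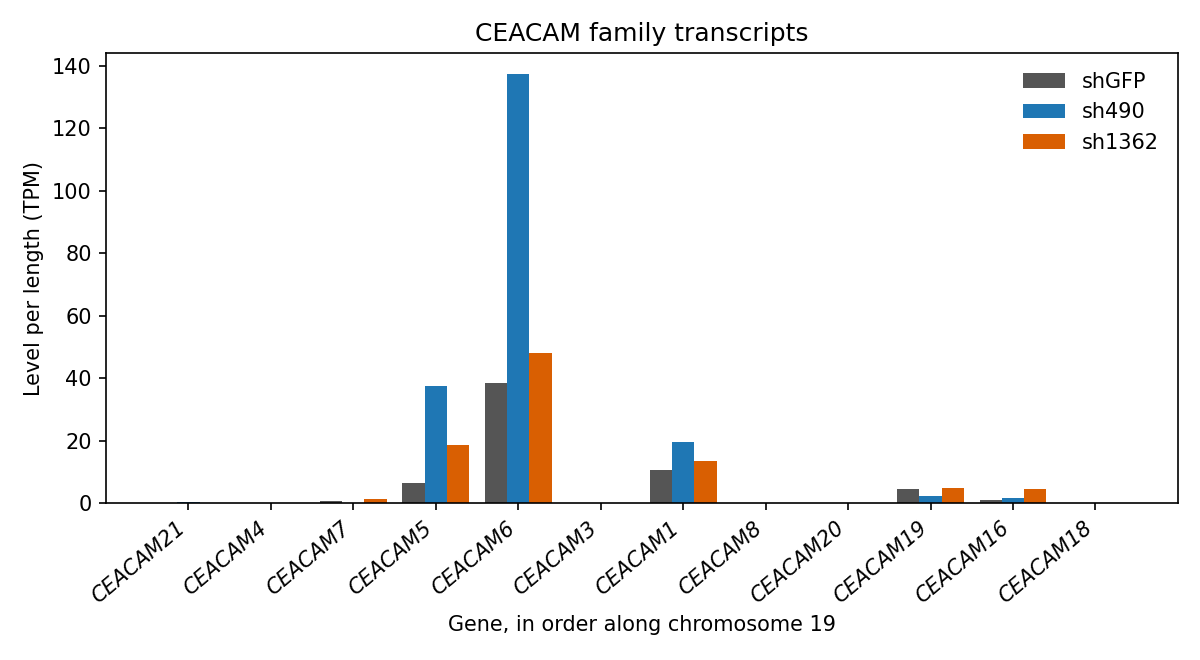
Level per exon length (TPM, bars from 0) of the 12 CEACAM genes in the shGFP, sh490 and sh1362 libraries, in their order along chromosome 19. CEACAM6 is the tallest in every library, and CEACAM5 goes from 6.54 TPM in shGFP to 37.7 and 18.7 TPM with the hairpins.

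CEACAM5 and CEACAM6 are neighbours among the genes that reach 5 CPM. The next such gene before the pair, DMAC2, differed by log2 folds of -0.04 (sh490) and -0.10 (sh1362), and the next after it, the ribosomal protein gene RPS19, by 0.20 and -0.01. The larger differences were thus found at the pair and not at these flanking genes. Reads that overlap 2 genes were not counted, and 4.15% of the exon bases of CEACAM5 and 4.67% of those of CEACAM6 are shared with 1 further annotated gene, ENSG00000267881. Reads that align to several relatives were left out by the counting, so the levels of this family are uncertain.

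Upstream stretches are shown for CEACAM5, CEACAM6 and CEACAM1, relatives that shared their order of libraries. CD276 had the same order, and its stretch is not shown. The stretches shown run from 250 to 40 bases before the RefSeq start (RefSeq, GRCh38.p14), 5′ to 3′ on each gene's strand. They lie at chr19:41708376-41708586 (plus strand), chr19:41755280-41755490 (plus) and chr19:42528521-42528731 (minus), and the last 2 bases of the CEACAM5 stretch fall in the 5′ end of a longer annotated transcript. Capitals mark CACGTG, the letters of a canonical E-box.

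CEACAM5: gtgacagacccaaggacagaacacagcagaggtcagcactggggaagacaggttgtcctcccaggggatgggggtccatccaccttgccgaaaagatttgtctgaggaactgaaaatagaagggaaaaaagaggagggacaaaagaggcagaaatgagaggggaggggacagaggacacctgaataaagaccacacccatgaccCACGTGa

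CEACAM6: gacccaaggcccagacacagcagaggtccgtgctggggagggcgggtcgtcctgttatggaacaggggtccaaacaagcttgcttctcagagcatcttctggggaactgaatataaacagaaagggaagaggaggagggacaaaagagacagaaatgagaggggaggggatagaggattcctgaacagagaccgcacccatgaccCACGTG

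CEACAM1: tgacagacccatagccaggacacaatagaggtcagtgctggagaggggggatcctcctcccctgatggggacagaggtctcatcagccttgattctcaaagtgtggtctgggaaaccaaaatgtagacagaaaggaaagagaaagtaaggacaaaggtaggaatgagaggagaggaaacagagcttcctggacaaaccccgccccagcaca

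Aligned end to end, CEACAM5 and CEACAM6 were identical at 74.8% of columns, CEACAM5 and CEACAM1 at 64.7%, and CEACAM6 and CEACAM1 at 67.6%. CACGTG, which reads the same on both strands, began 46 bases before the start of CEACAM5 and 45 before that of CEACAM6, and was not found in the CEACAM1 stretch; 5.27% of 27305 genes hold it in a window of this length and place. The looser CANNTG, which includes it, was found at 2 places in CEACAM5, 1 in CEACAM6 and none in CEACAM1, and 57.0% of genes hold it. GGGCGG, searched on both strands as the core of a GC box, was in CEACAM6 and CEACAM1 and in 37.1% of genes. TATAAA, also on both strands, was in CEACAM6 and in 8.09% of genes. These are matches of letters, and no binding was measured. The promoter table held 5 of the 9 antigens: CEACAM5, CEACAM1, CD276, SSTR2 and CD24.

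The 3 genes nearest to CEACAM5 by the distance between their pairs of log2 folds, over these 3 libraries, were KLHL26 (0.371), RELN (0.512) and BTD (0.581). KLHL26 had 62, 41 and 8 reads in sh490, sh1362 and shGFP, RELN 89, 39 and 11, and BTD 66, 44 and 10. Each had fewer reads than CEACAM5 in every library, with control counts of 8 to 11.

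**Figure D4:**
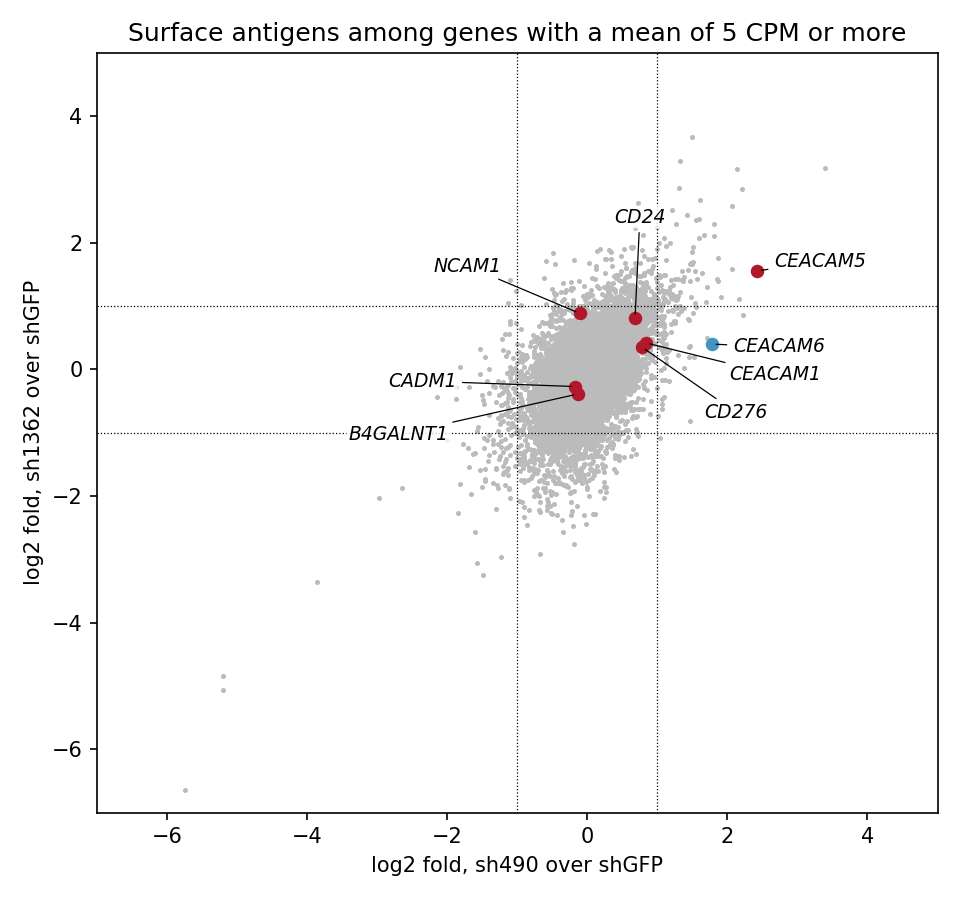
Log2 fold with sh490 (horizontal axis) against log2 fold with sh1362 (vertical axis), both over the same shGFP library, for the 11638 genes that reach a mean of 5 CPM (grey); 7 antigens are red, CEACAM6 is blue, and dotted lines mark 2-fold. CEACAM5 lies at 2.43 and 1.56, outside both lines, and the other 6 antigens lie within them.

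Among the neural adhesion molecules, NCAM1 and CADM1 behaved differently. NCAM1, or CD56, a diagnostic marker of neuroendocrine tumours and of natural killer cells, lies at chr11:112961247-113278436 on the plus strand (ENSG00000149294.16). It had 1064 reads in sh490, 1982 in sh1362 and 701 in shGFP, or 134.6, 269.1 and 145.3 CPM. The sh1362 library stood above the other 2, which were close to each other. Relative to shGFP the level was 1.85 (1.70 to 2.02) with sh1362 and 0.926 (0.841 to 1.02) with sh490, and the hairpins differed from each other by a ratio of 0.50 (sh490 over sh1362, 0.464 to 0.539). That log2 difference of -0.998 was just inside the 2-fold mark and fell just outside it, at -1.007, with DESeq2 size factors; 3.88% of genes were 2-fold higher and 2.02% 2-fold lower in sh490 than in sh1362. The fitted log2 fold for both hairpins, 0.47 ± 0.42 (SE), did not pass (edgeR, Benjamini-Hochberg adjusted p = 0.986). It was -0.11 without sh1362 and 0.89 without sh490.

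NCAM1 was not alone in being higher in sh1362 than in sh490, though the place of the control differed between genes. Of the 11 neuroendocrine markers, 8 were higher in sh1362 than in sh490, where 48.3% of 11638 genes were, and the median of their log2 folds was -0.21 for sh490 and 0.53 for sh1362. The transcription factor gene INSM1 had log2 folds of 0.86 and 1.75, and NEUROD1, another neural transcription factor gene, -0.26 and 0.57. The granule protein genes CHGB and SCG3 showed -0.62 and 0.73, and -0.27 and 0.72. UCHL1, a neuronal ubiquitin hydrolase gene, was nearly alike with both, at 0.65 and 0.71, and SCG2, another granule protein gene, was lower with both, at -1.03 and -0.19. ENO2, the neuronal enolase, went the other way, at -0.52 and -1.28. None of the 11 passed the test of both hairpins after adjustment in edgeR, and INSM1, UCHL1 and ENO2 had an unadjusted p under 0.05. At that unadjusted level 2.27% of all tested genes were higher and 2.08% lower. The part of the neuroendocrine markers in the difference in NCAM1 was not tested. The sh1362 library also had the largest share of mitochondrial reads, at 7.78% against 5.50% in sh490 and 5.47% in shGFP.

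**Figure D5:**
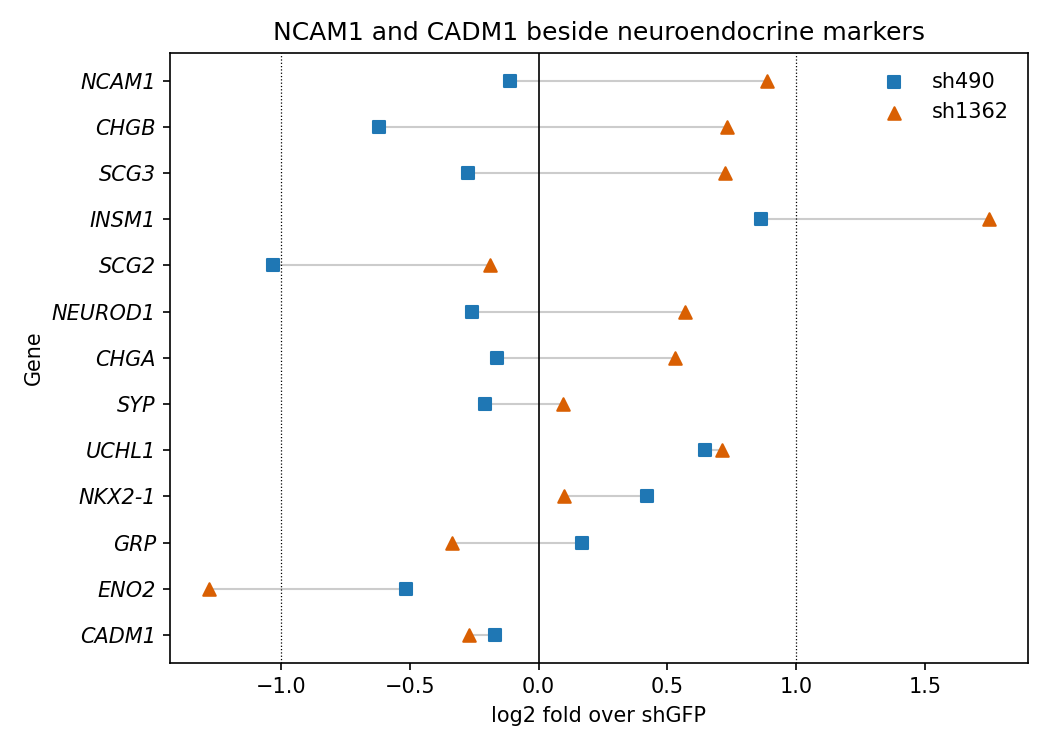
Log2 fold over shGFP with sh490 (squares) and sh1362 (triangles) for NCAM1, the 11 neuroendocrine markers and CADM1; the grey line joins the values of a gene, the solid line marks 0 and dotted lines mark 2-fold. In NCAM1 and in 8 of the 11 markers the triangle lies to the right of the square, and in CADM1 it lies to the left.

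CADM1, an immunoglobulin-like adhesion molecule of epithelial and nerve cells, lies at chr11:115169218-115504957 on the minus strand (ENSG00000182985.17). It had 3313 reads in sh490, 2880 in sh1362 and 2274 in shGFP, or 419.0, 391.1 and 471.4 CPM. The control was the highest of the 3 libraries. Relative to shGFP the level was 0.889 (0.842 to 0.938) with sh490 and 0.830 (0.785 to 0.877) with sh1362, the narrowest intervals of the 9 because CADM1 was counted deepest in the control. The fitted log2 fold was -0.22 ± 0.26 (SE) and did not pass (edgeR, Benjamini-Hochberg adjusted p = 0.986).

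Their relatives gave no common direction. Of 8 other genes of NCAM-type adhesion and polysialic acid synthesis, 3 reached a mean of 5 CPM: ALCAM (log2 folds 0.10 and 0.51 with sh490 and sh1362), NRCAM (0.32 and -0.29) and ST8SIA4 (0.21 and 0.00). ST8SIA4 is a polysialyltransferase that modifies NCAM1, and it had 198, 159 and 104 reads in sh490, sh1362 and shGFP, while the other polysialyltransferase gene ST8SIA2 was at 0 in each. NCAM2, the paralogue of NCAM1, had 7, 14 and 4 reads. Of 10 nectin and CADM relatives, 7 were at 5 CPM or more. Among these, 1 was higher with both hairpins (33.8% of all genes), 1 lower (34.5%) and 5 opposite (31.8%). NECTIN1 had log2 folds of 0.24 and 0.55, NECTIN2 -0.16 and -0.22, CADM4 0.25 and -0.07, and PVR, the poliovirus receptor, 0.02 and -0.10. In edgeR's test were 4 of the 8 and 9 of the 10. No gene of these lists passed after adjustment. An unadjusted p under 0.05 was found for 0, where 2.27% of all tested genes were higher and 2.08% lower.

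The antigens known for their action on immune cells, CD276 and CD24, were both higher with each hairpin. CD276, or B7-H3, a B7 family ligand, lies at chr15:73683966-73714514 on the plus strand (ENSG00000103855.18). It had 454 reads in sh490, 315 in sh1362 and 161 in shGFP, or 57.4, 42.8 and 33.4 CPM. As with CEACAM5 and CEACAM1, sh490 was highest and shGFP lowest. Against shGFP the ratio was 1.72 (1.43 to 2.07) with sh490 and 1.28 (1.06 to 1.56) with sh1362, and the fitted log2 fold of 0.59 ± 0.34 (SE) did not pass (edgeR, Benjamini-Hochberg adjusted p = 0.986).

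Of 9 other B7 genes listed, 2 had a mean of 5 CPM or more, and both were lower with each hairpin, where 34.5% of all genes were. CD274, the gene of PD-L1, had 58 reads in sh490, 44 in sh1362 and 51 in shGFP, for log2 folds of -0.51 and -0.79. NCR3LG1, the gene of the natural killer cell ligand B7-H6, had 331, 166 and 277 reads, for -0.45 and -1.34. Neither passed edgeR's test (Benjamini-Hochberg adjusted p = 0.986 for each). CD86, a ligand of antigen-presenting cells, had 7, 14 and 0 reads, and VSIR had 6 in each. CD86 thus had more reads with both hairpins, but at a mean under 5 CPM and too few for a fold. Only 3 of the 9 had enough reads for edgeR's test, and CD86 alone of these had an unadjusted p under 0.05. With DESeq2 and with limma-voom 0 had. At that unadjusted level in edgeR, 2.27% of all tested genes were higher and 2.08% lower.

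CD24, a short, heavily glycosylated protein held by a glycosylphosphatidylinositol anchor and recognised by Siglec-10 on macrophages, lies at chr6:106969831-106975627 on the minus strand (ENSG00000272398.6). It had 2797 reads in sh490, 2843 in sh1362 and 1064 in shGFP, or 353.7, 386.1 and 220.6 CPM. Both hairpin libraries stood above the control and close to each other. The ratio to shGFP was 1.604 (1.49 to 1.72) with sh490 and 1.75 (1.63 to 1.88) with sh1362, and 0.916 (0.869 to 0.966) between the hairpins. Of the 9 antigens it had the second smallest unadjusted p (0.0258; fitted log2 fold 0.75 ± 0.27, SE), which did not pass after adjustment (edgeR, Benjamini-Hochberg adjusted p = 0.986). Its 4 pseudogene copies in the tables had 0 reads in every library, and reads that align to several copies were left out.

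CEACAM5 and CD24 share an anchor, so the genes that build and remodel it were listed too. Of 24, 23 reached a mean of 5 CPM. With both hairpins 9 were higher (33.8% of all genes), 9 lower (34.5%) and 5 opposite (31.8%). Their medians were -0.11 (sh490) and 0.15 (sh1362) on the log2 scale. PGAP3, which remodels the lipid of the anchor, had log2 folds of 0.92 and 0.99. PIGA, of the enzyme that starts the anchor, had -0.62 and -0.999. PIGX and PIGW, of the same pathway, were higher with both, at 0.57 and 0.44, and at 0.41 and 1.08. None of the 24 passed edgeR's test after adjustment, and PGAP3 and PIGA alone had an unadjusted p under 0.05. At that unadjusted level 2.27% of all tested genes were higher and 2.08% lower.

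SEZ6 and SSTR2 were too weakly read for a hairpin-by-hairpin call. SEZ6, a neuronal transmembrane protein trimmed from the cell surface by the protease BACE1, lies at chr17:28954901-29006440 on the minus strand (ENSG00000063015.20). It had 23 reads in sh490, 26 in sh1362 and 25 in shGFP, or 2.91, 3.53 and 5.18 CPM. The control was highest once scaled to library size, but all 3 intervals overlapped. The ratio to shGFP was 0.561 (0.304 to 1.03) with sh490 and 0.681 (0.378 to 1.23) with sh1362, so a difference was not detectable at this depth, and the fitted log2 fold was -0.69 ± 0.60 (SE; edgeR, Benjamini-Hochberg adjusted p = 0.986). Its relative SEZ6L2 was better covered, with 209, 288 and 105 reads in sh490, sh1362 and shGFP and log2 folds of 0.28 and 0.84, while SEZ6L was at 0. BACE1 had log2 folds of 0.00 and 0.53. BACE2, a related protease, was lower with both, at -0.91 and -1.56, from 92, 54 and 107 reads, and did not pass (edgeR, Benjamini-Hochberg adjusted p = 0.986).

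SSTR2, the somatostatin receptor bound by most radiolabelled somatostatin analogues, lies at chr17:73165010-73176633 on the plus strand (ENSG00000180616.9). It had 28 reads in sh490, 28 in sh1362 and 20 in shGFP, or 3.54, 3.80 and 4.15 CPM. The 3 libraries overlapped within counting error. Against shGFP the ratio was 0.854 (0.464 to 1.599) with sh490 and 0.917 (0.498 to 1.72) with sh1362; these wide intervals reach past 2-fold lower and stay under 2-fold higher. The fitted log2 fold was -0.17 ± 0.61 (SE) and did not pass (edgeR, Benjamini-Hochberg adjusted p = 0.994).

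Of the other receptors, SSTR1 was the best covered, with 85, 145 and 79 reads in sh490, sh1362 and shGFP and log2 folds of -0.59 and 0.26; SSTR3, SSTR4 and SSTR5 were at 0 in each. The ligand gene SST had 435, 675 and 309 reads, for -0.22 and 0.51. Somatostatin receptors signal through inhibitory G proteins. GNAI2, of an inhibitory G protein alpha subunit, had 110, 116 and 23 reads, for 1.49 and 1.66, and an unadjusted p of 0.00876 in edgeR (Benjamini-Hochberg adjusted p = 0.986). The related GNAI1 and GNAI3 had 0.52 and 0.38, and 0.13 and 0.51, and ARRB1, a beta-arrestin gene, -0.20 and -1.03. GNAI2 was the only 1 of the 7 genes of this list at 5 CPM or more that was 2-fold higher with both hairpins. Over all genes at that level, 0.808% were.

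B4GALNT1, the GM2/GD2 synthase gene, lies at chr12:57623409-57633239 on the minus strand (ENSG00000135454.14). It had 156 reads in sh490, 122 in sh1362 and 105 in shGFP, or 19.7, 16.6 and 21.8 CPM. The hairpin libraries were slightly below the control. The ratio to shGFP was 0.906 (0.703 to 1.17) with sh490 and 0.761 (0.581 to 0.998) with sh1362, and the fitted log2 fold of -0.26 ± 0.36 (SE) did not pass (edgeR, Benjamini-Hochberg adjusted p = 0.986). Of its exon bases, 27.1% are shared with SLC26A10P and 1 further gene on the other strand, and reads falling there were not counted for any of them, so its level is uncertain.

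The other steps of ganglioside synthesis gave no common direction. Of 16 listed genes, 8 had a mean of 5 CPM or more, with 1 higher with both hairpins, 4 lower and 3 opposite, where 33.8%, 34.5% and 31.8% of all genes were, and median log2 folds of -0.39 and -0.16. UGCG, which makes the glucosylceramide that gangliosides start from, had log2 folds of -0.26 and -0.73, and ST3GAL5, the GM3 synthase gene, 0.14 and 0.31. ST8SIA1, the GD3 synthase gene needed to make GD2, had only 0, 5 and 2 reads in sh490, sh1362 and shGFP. The sialyltransferase genes ST8SIA5 (-0.73 and -0.85) and ST6GALNAC3 (-0.60 and -1.70) were lower with both. FUT1, a fucosyltransferase gene, had 315, 439 and 262 reads, for -0.44 and 0.13. Of the 16, 14 were in edgeR's test, and ST8SIA1 was not. None passed after adjustment, and 0 had an unadjusted p under 0.05, where 2.27% of all tested genes were higher and 2.08% lower.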

How the data were processed

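Polyadenylated RNA of 3 libraries was made into libraries with a SMARTer kit, per the labels' protocols. The deposited values are raw counts per gene, made by the authors with featureCounts 1.6.0 on exons of GENCODE 32 (per the file headers) after alignment with STAR 2.6.1c to GRCh38 and FastQC 0.11.8 (per the submitters' processing notes). In the command line of the headers, strand, pairs, multiple alignments and overlapping genes were left at their defaults, so both strands were added together and reads of several places or genes were left out. Symbols were matched for 60295 of 60609 genes.

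Both hairpins (sh490 as replicate 1, sh1362 as replicate 2 of 1 group) were tested against shGFP in 15708 genes with edgeR 4.0.16 (R 4.3.3; TMM, filterByExpr, robust quasi-likelihood F test, two-sided, Benjamini-Hochberg adjusted p under 0.05), with 1 residual degree of freedom and a median of 7.16 prior degrees of freedom. Single hairpins have 1 library, so log2 CPM differences (prior count 2) and exact 95% conditional binomial intervals of ratios are given without a test. TPM was computed from the counts and the tables' exon lengths. Totals were 7791747 (sh490), 7421552 (sh1362) and 4899006 (shGFP) counts, where 1 read is 0.127, 0.136 and 0.207 CPM.

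The 9 genes and 14 further gene lists were chosen with earlier results of these data known. All 9 are named, with up to 4 genes of each other list that had a mean of 5 CPM or more and the largest same-direction change with both hairpins, then by level, and the 3 genes nearest to CEACAM5; every other gene named (for example CHGB, SCG3, SSTR1, SST, FUT1, ST8SIA1 and the genes flanking CEACAM5) was chosen after its values were seen. A further neuroendocrine marker is not reported here. Alternatives were DESeq2 1.42.0, limma-voom (limma 3.58.1), other scalings, filters and prior counts, and leaving out each hairpin.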

Additional observations from a re-analysis of the deposited data

How the results depend on the processing

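Of 185 values recomputed under the alternatives, 166 kept their direction and size or call, 18 moved and 1 became a call. CEACAM5 stayed at least 2-fold higher with each hairpin under every scaling and prior count tried. The log2 fold of NCAM1 with both hairpins (0.47), which was no call, changed sign without sh1362. No paired analysis was possible because the groups share no replicate number in the labels and the control is 1 library. Over all genes, edgeR called 0 higher and 4 lower with both hairpins; DESeq2 called 1 higher, limma-voom 2 lower, while edgeR with every gene kept, low counts included, called 22 higher and 36 lower. CEACAM5 was called in that unfiltered fit alone, with a log2 fold of 2.13 (Benjamini-Hochberg adjusted p = 0.00579; 0.781 with DESeq2). Leaving out each hairpin in turn gave values with no test, from 1.56 (without sh490) to 2.43 for CEACAM5 and from -0.11 (without sh1362) to 0.89 for NCAM1. Keeping all genes that pass filterByExpr, in place of a mean of 5 CPM, raised the genes at least 2-fold apart to 719 higher and 628 lower with sh490, 1177 and 1291 with sh1362, and 970 and 877 between the hairpins, since low counts enter. Without mitochondrial genes, control levels became 13.5 TPM for CEACAM1, 29.1 for CD276, 54.5 for NCAM1, 13.2 for B4GALNT1, 340.4 for CD24 and 204.4 for CADM1, because the total shrinks, with the order unchanged. SEZ6 and SSTR2 have no value in the fit with a mean of 5 CPM. The control is a single library with the fewest reads, so an error particular to it enters every comparison, and 20 to 28 control reads limit SEZ6, SSTR2 and CEACAM5.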

Other observations

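Beside the 9, other surface proteins under study as therapy targets had mixed directions, with a median below the control for sh1362. Of 40 listed, 24 had a mean of 5 CPM or more. With both hairpins 8 were higher (33.8% of all genes), 10 lower (34.5%) and 6 opposite (31.8%). Their median log2 folds were 0.09 (sh490) and -0.47 (sh1362), beside 0.00 and -0.01 over all genes. With sh1362, 0 of the 24 were at least 2-fold higher and 5 lower, where 3.3% and 6.0% of all genes were. With sh490, 2 were 2-fold higher and 1 lower, where 1.39% and 1.42% were. ROR1, a receptor tyrosine kinase-like protein, was 2-fold lower with both, at -1.10 and -1.35, from 105 reads in sh490, 82 in sh1362 and 139 in shGFP. F3, the gene of tissue factor, had log2 folds of -0.97 and -0.96, and GPC2, an oncofetal proteoglycan of neural tumours, -0.96 and -0.98. SDC1, or CD138, was higher, at 1.22 and 0.93, from 504, 382 and 131 reads. DLL3, the Notch ligand that is the best known T-cell engager target in small cell lung cancer, was nearly level, with 265, 237 and 142 reads and log2 folds of 0.19 and 0.13 (chosen after its values were seen). Of the 40, 28 had enough reads for edgeR's test. None passed after adjustment, and 4 had an unadjusted p under 0.05: ROR1, SDC1, EGFR and TNFRSF10B. At that unadjusted level 2.27% of all tested genes were higher and 2.08% lower.

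The 3 non-neuroendocrine small cell markers of 6 that had a mean of 5 CPM or more, YAP1, HES1 and REST, were lower in sh1362 than in sh490. Over all genes at that level, 48.3% were higher in sh1362 than in sh490. YAP1 had 65 reads in sh490, 11 in sh1362 and 64 in shGFP, HES1 had 151, 56 and 65, and REST had 183, 72 and 100. VIM had 15, 14 and 15. Of 10 stromal and endothelial markers, 2 had a mean of 5 CPM or more, KDR with 81, 24 and 80 reads and COL1A1 with 70, 45 and 35. PECAM1 had 8, 15 and 10 reads and CDH5 had 3, 0 and 4. Of the white cell markers, S100A9 had 1, 0 and 20 reads, S100A8 had 0, 0 and 5, and CD14 had 14, 10 and 6.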
